A study of Mus musculus with 47 samples.

Results

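Hsp70 is the chaperone that stressed cells make in bulk, and its inducible form is encoded by a pair of near-identical genes, Hspa1a and Hspa1b. In this set of single muscle fibres the summed RNA level of that pair spanned 210-fold among wild-type fibres that carried the same label. The 9 fibres with the highest level were therefore set against the 9 with the lowest, 18 of 27 wild-type (WT) fibres and of 47 fibres in all. Fibres were chosen by the measured sum of Hspa1a and Hspa1b, in counts per 1000000 gene counts of the fibre (CPM), so the levels of these genes are the rule and not a finding, and both were left out of every comparison.

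The fibres were taken from FVB/N mice of 2 to 3 months, out of a fast-twitch leg muscle, the extensor digitorum longus (EDL). The high and low fibres compared here were all WT. A further 20 fibres from C2-/- mice (C2KO), which lack myosin binding protein C of the fast skeletal type (gene Mybpc2), were not used by the rule and were ranked in the same way, with 7 taken from each end. Mybpc2 was at 2.61 to 47.6 CPM in these C2KO fibres and 6563 to 11556 CPM in WT fibres. The labels name 3 WT and 2 C2-/- mice but tie no fibre to a mouse. All muscles were digested with collagenase and fibres were freed by trituration before lysis, a treatment that high and low fibres share. Because fibres of 1 mouse are not independent and were picked on a measured value, each comparison below is a description with no p-value. For each gene the difference is the mean log2(CPM + 1) of the high fibres minus that of the low fibres, and the number of the 81 high-low fibre pairs in which the high fibre was above the low one says how far the groups overlapped.

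As background, heat-shock factor 1 (HSF1) is held inactive by chaperones in unstressed cells. When proteins unfold, HSF1 is released, forms trimers and binds heat-shock elements, which are repeated inverted units of the letters GAA and TTC, in the promoters of chaperone genes. Hsp70 folds proteins in a cycle run by J-domain partners such as the product of Dnajb1, which stimulate its ATPase, and by nucleotide exchange factors of the Hsp110 and Bag families. The product of Hspa8 is the constitutive member of the family, and Hsp90 takes over many of the clients. In skeletal muscle Hsp70 is known to be induced by heat, exercise and injury.

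The promoters of both chosen genes are shown because each holds 1 pair of the inverted units that heat-shock elements repeat. Each stretch is the 250 bases before the start of the gene (RefSeq sequence, build GRCm38.p6), read 5′ to 3′ on the strand of the gene, with the match to the paired form GAANNTTC in capitals. Hspa1a lies on the minus strand at chr17:34972157-34972406 and Hspa1b on the minus strand at chr17:34959239-34959488.
Hspa1a: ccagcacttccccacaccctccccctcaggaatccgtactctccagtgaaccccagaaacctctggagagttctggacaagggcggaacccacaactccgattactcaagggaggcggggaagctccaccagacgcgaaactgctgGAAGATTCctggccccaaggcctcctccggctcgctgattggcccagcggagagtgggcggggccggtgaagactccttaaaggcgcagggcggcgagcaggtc
Hspa1b: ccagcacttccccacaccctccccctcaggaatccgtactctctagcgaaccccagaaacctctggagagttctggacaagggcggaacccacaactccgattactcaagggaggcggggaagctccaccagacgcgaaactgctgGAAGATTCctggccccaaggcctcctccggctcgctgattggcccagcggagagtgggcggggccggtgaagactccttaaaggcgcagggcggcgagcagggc
The stretches were identical at 247 of 250 positions. Counted from 1 at the 5′ end, with the Hspa1a base first, they differed at C44T, T47C and T249G. Each held 1 paired unit, which began 104 bases before the start, and neither held the triple form GAANNTTCNNGAA or TTCNNGAANNTTC. At least 1 paired unit in either order (GAANNTTC or TTCNNGAA, which read the same on both strands and may overlap) was found in 10.0% of 5912 entering genes with a promoter in the table, and a triple form in 0.355%. Among the heat-shock-induced targets with a promoter there, 6 of 24 held a paired unit and 1, Hspe1, a triple form.

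The genes lie side by side and are near-identical copies. Hspa1a (mm10 chr17, 34969359 to 34972156, minus strand) and Hspa1b (chr17, 34956429 to 34959238, minus strand) have exon lengths of 2798 and 2810 bases in the annotation of the files. The authors counted read pairs that mapped to 1 place, so reads from the shared sequence of this pair are not in the tables and how the rest divide between them is uncertain. The ratio of Hspa1b to Hspa1a ran from 1.53 to 1.96 in high fibres and from 0.95 to 1.88 in low fibres. Ranking by Hspa1b alone picked the same 9 and 9 fibres.

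The summed level fell along a continuum with no gap at either edge of the groups. High fibres ran from 86.7 to 855 CPM with a median of 303 CPM, and low fibres from 4.07 to 17.99 CPM with a median of 7.93 CPM. The lowest high fibre, WT fibre 15, was at 86.7 CPM, next to WT fibre 11 outside the group at 83.8 CPM. The highest low fibre, WT fibre 21, was at 17.99 CPM, next to WT fibre 7 outside the group at 19.7 CPM. The sum rested on at least 33 read pairs in each WT fibre. The 9 fibres between the groups ran from 19.7 to 83.8 CPM with a median of 41.96 CPM. WT fibres 12 and 17 stood above the rest at 855 and 650 CPM, and the next fibre was at 337 CPM.

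**Figure D1:**
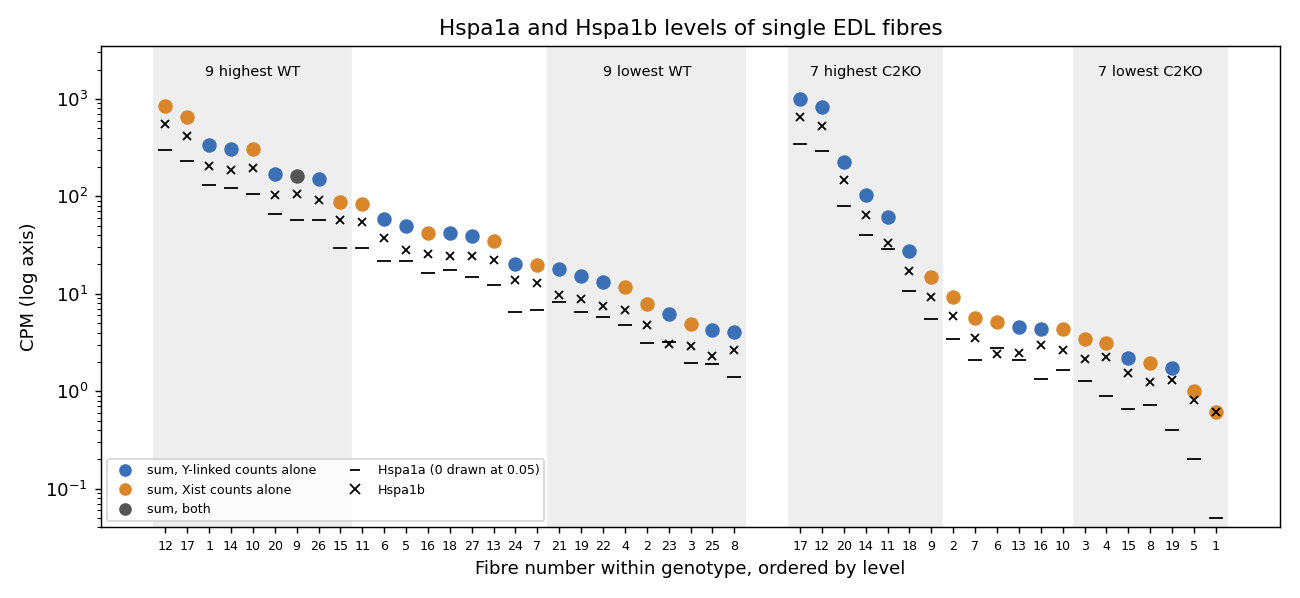
Summed CPM of Hspa1a and Hspa1b in each of 47 fibres on a log axis, ordered by level within WT and within C2KO; bars and crosses give Hspa1a and Hspa1b alone, colours the sex-linked kind of the fibre, and grey bands the compared fibres. The 9 high WT fibres run from 86.7 to 855 CPM and the 9 low ones from 4.07 to 17.99 CPM, and the steps at the edges of the bands are small.

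The groups differed in make-up as well as in Hsp70. By counts of Xist, which marks an inactive X chromosome, and of 4 Y-linked genes, the high fibres comprised 4 fibres with over 10 Y-linked counts alone, 4 with over 10 Xist counts alone and 1 with both (WT fibre 9, at 11 Y-linked counts). The low fibres comprised 6 Y-linked and 3 Xist fibres. By sequencing run in the labels, 4, 2 and 3 high fibres and 4, 4 and 1 low fibres came from the runs labelled run2868, run2869 and run0092. Results are therefore also given within the Y-linked fibres (4 high, 6 low), within the Xist fibres (4 high, 3 low) and within run2868 and run2869. The run0092 fibres, with 1 low fibre, give no such value. All 3 low Xist fibres were of run2868, as was 1 of the 4 high ones, so values within Xist fibres also compare runs. Kinds were also unbalanced within runs. In run2869 the high fibres were WT 12 (Xist), the highest WT fibre, and WT 20 (Y-linked), whereas all 4 low fibres were Y-linked. In run2868 the high fibres were 2 Y-linked, 1 Xist and 1 with both, and the low fibres 1 Y-linked and 3 Xist. Values within a run therefore also compare kinds. Fibres with Y-linked counts alone and fibres with Xist counts alone are taken to come from different mice. Differences between kinds are therefore also differences between mice, of which the labels name 3 in WT. Kind and mouse cannot be told apart.

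Depth and fibre type overlapped between the groups. High fibres held 7919927 to 14606631 gene counts and low fibres 7842184 to 14395910, with 11754 to 13142 and 11836 to 12810 genes detected. All were type IIb by myosin, since Myh4 made up at least 99.3% of the counts of Myh1, Myh2, Myh4 and Myh7 in each group. Of the 13 fibroblast markers 1, Gsn, was abundant enough to enter, and their summed level ran from 1.14 to 98.8 CPM in high fibres (median 5.78) and from 1.16 to 378 CPM in low fibres (median 3.49). The 13 endothelial markers summed to at most 6.62 and 5.19 CPM, and the 12 macrophage markers to 3.28 to 19.1 and 2.55 to 8.89 CPM in high and low fibres, with 4 of the 12 at 0 in every WT fibre. Mrc1, the only macrophage marker that entered, was at 3.16 to 15.3 CPM in high fibres and 1.15 to 8.15 CPM in low fibres, a difference of 0.70, and the part of these cells in other differences was not tested. The 7 adipocyte and 6 erythrocyte markers summed to at most 1.46 CPM in both groups.

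Few genes differed by 1.5-fold on this scale. Of 7604 genes with a mean of at least 5 CPM over the WT fibres, 73 were at least 1.5-fold higher in high fibres (0.96% of all genes compared) and 64 at least 1.5-fold lower (0.842%). The median difference over all genes was -0.02. No gene reached 1.5-fold with every high fibre beyond every low fibre (0%). Without WT fibre 20, 26, 15 or 8 there was 1 such gene, which was Hsp90aa1, Chrne, Dnajb1 or Ankrd12 in that order. Whatever their fold, 18 genes (0.237%) were higher and 9 (0.118%) lower in at least 73 of the 81 pairs.

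The J-domain gene and 1 Hsp90 gene were the members of the heat-shock-induced list that went with Hsp70. The list holds 30 targets besides the chosen pair, 29 of which entered. Of these, 2 were past 1.5-fold and higher (Dnajb1 and Hsp90aa1) and 0 lower, beside 0.96% and 0.842% of all genes. Dnajb1 was named with the chosen pair, so only Hsp90aa1 was called apart from that choice. A positive difference was seen for 21 of 29, beside 42.6% of all genes, and the median was 0.04 against -0.02 for all genes. Within Y-linked fibres 16 of 29 were positive (41.4% of all genes), and within Xist fibres 20 (50.8%). The median was -0.06 within run2868 and 0.20 within run2869, against -0.08 and 0.04 for all genes.

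Dnajb1, which encodes the J-domain partner Hsp40 (chr8, 83608175 to 83612653), ran from 15.7 to 415 CPM in high fibres with a median of 74.3 CPM, and from 7.65 to 24.6 CPM in low fibres with a median of 20.9 CPM. WT fibre 15, the last of the high group, was the only high fibre inside the low range. The difference of Dnajb1 was 2.22 on the log2 scale, with the high fibre above in 75 of 81 pairs. It was 2.02 within Y-linked fibres (24 of 24 pairs) and 2.71 within Xist fibres (10 of 12 pairs), and 2.03 and 2.95 within run2868 and run2869. Without WT fibres 12 and 17 the difference was 1.66. Dnajb1 was named together with the chosen pair when this comparison was picked, so its difference is a description of that choice.

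Hsp90aa1, the inducible cytosolic Hsp90 (chr12, 110691036 to 110696395), ran from 21.7 to 72.8 CPM in high fibres with a median of 38.5 CPM, and from 15.3 to 28.2 CPM in low fibres with a median of 23.2 CPM. Its difference was 0.87, in 75 of 81 pairs. WT fibre 20 was the only high fibre inside the low range of Hsp90aa1. The difference of Hsp90aa1 was 0.83 within Y-linked fibres, 0.82 within Xist fibres, and 0.75 and 1.01 within run2868 and run2869. Hsp90ab1, the constitutive partner gene, was at 840 to 1062 CPM in high fibres and 852 to 1019 CPM in low fibres, a difference of 0.04.

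The remaining chaperones of the list stayed close to their level in low fibres. Dnaja4, another J-domain gene, had the next largest difference (0.48, 61 of 81 pairs), with 77.3 to 188 CPM in high fibres and 58.5 to 119 CPM in low fibres. Hspa8, the constitutive Hsp70, was at 500.5 to 665 CPM in high fibres (median 594) and 446 to 749 CPM in low fibres (median 551), with a difference of 0.01. The Hsp110 gene Hsph1 had a difference of 0.21, the small heat-shock genes Hspb1, Hspb8 and Cryab of 0.14, 0.02 and 0.16, and the Hsp70 co-chaperone gene Bag3 of 0.15. The polyubiquitin gene Ubb differed by 0.04 and the collagen chaperone gene Serpinh1 by 0.28. The J-domain genes Dnaja1 and Dnajb4 differed by 0.20 and -0.02, and the Hsp70 relatives Hspa4l and Hspa2 by 0.13 and -0.24. Exons of Dnaja1, Ahsa2, Cryab and Ubb overlap other genes, so their values are uncertain. For Ubb the overlap is 703 of 1165 exon bases, with Gm1821 on the same strand.

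Mitochondrial and Hsp90-linked members of the list were as close to 0. The mitochondrial chaperonin genes Hspd1 and Hspe1 differed by 0.06 and 0.09. Among partners of Hsp90, Stip1 differed by 0.01, Ahsa1 by 0.05, Ahsa2 by 0.03, Chordc1 by 0.02, Cacybp by -0.07 and St13, which also binds Hsp70, by -0.06. Zfand2a, Sqstm1 and Ier5 differed by -0.11, -0.01 and -0.28. Fkbp4, the gene of an immunophilin that joins Hsp90, was lower by a small and regular amount. It ran from 138 to 170 CPM in high fibres and from 161 to 186 CPM in low fibres, and the high fibre was above in 4 of 81 pairs at a difference of -0.16. Hspa1l, the neighbour of Hspa1a on chr17 and the last member of the list, was too low to enter.

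**Figure D2:**
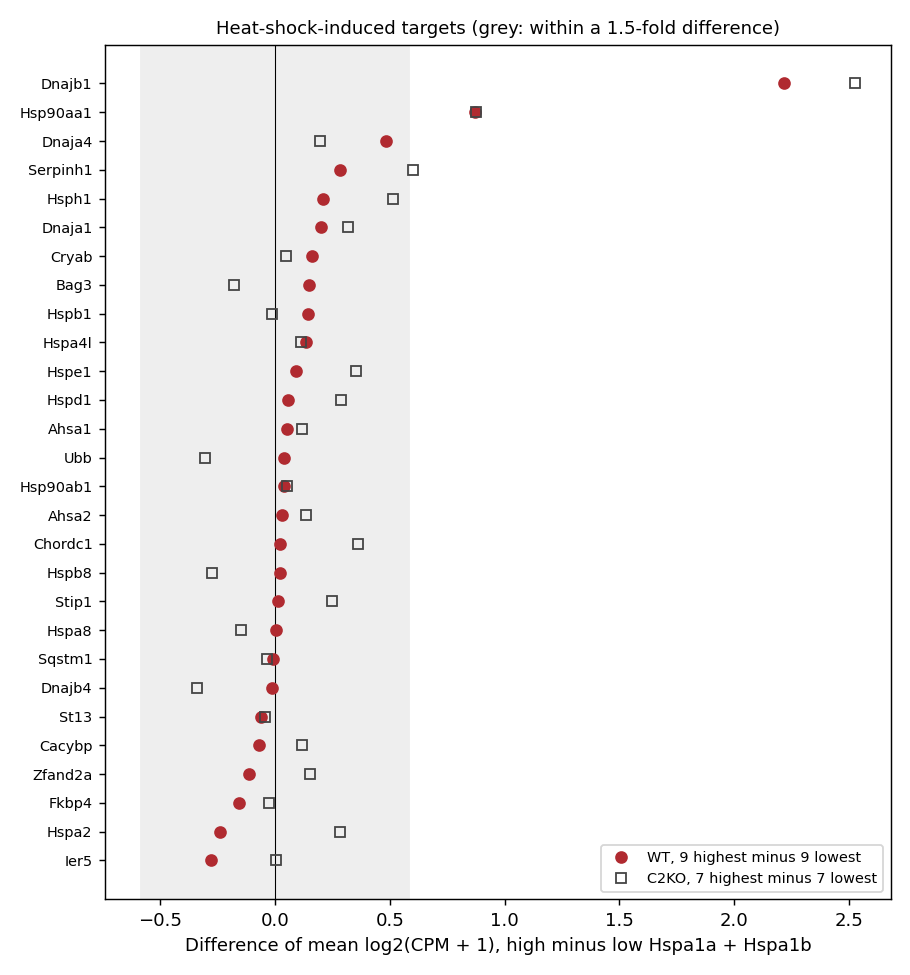
Difference of mean log2(CPM + 1) for the heat-shock-induced targets reported here, 9 highest minus 9 lowest WT fibres (red circles) and 7 highest minus 7 lowest C2KO fibres (open squares); the grey band is within 1.5-fold. Dnajb1 at 2.22 and Hsp90aa1 at 0.87 lie outside the band in WT fibres, and the others lie between -0.28 and 0.48.

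Among wider lists of the protein quality system few genes were past the fold, as among all genes (0.96% higher and 0.842% lower). Counts of 0 or 1 in lists this short therefore do not set them apart. Past 1.5-fold were 0 of 9 other Hsp70 family genes (median 0.09), 1 of 17 J-domain genes (Dnajb1, named with the chosen pair) and 0 of 10 Bag and exchange factors. So were 1 of 17 Hsp90 genes and partners (Hsp90aa1), 0 of 7 small heat-shock genes and 0 of 12 chaperonin and matrix chaperone genes. Among 27 proteasome genes 0 were past the fold (median -0.01, with Psmd2 and Psmc3 the most abundant), and among 18 genes of the unfolded-protein response 0 (median 0.05). Of 12 genes of chaperone-assisted autophagy and its filamin targets 1 was past the fold and lower, Xirp1, which encodes an actin-binding repeat protein. Xirp1 differed by -0.70 over all 18 fibres, by 1.48 within Y-linked and by -2.58 within Xist fibres, and was named after its values were seen. Hspa5, the Hsp70 of the endoplasmic reticulum, differed by 0.20. Hsf1 itself was at 41.1 to 55.9 CPM in high fibres and 37.96 to 57.8 CPM in low fibres. Of 19 fast sarcomere genes and 15 glycolysis genes 0 were past the fold.

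Genes whose level followed the Hsp70 sum most closely over all 27 WT fibres were a mixed set. Only genes that averaged 10 CPM or more in the 18 compared fibres were ranked here. Their Spearman correlations with the sum are a description over fibres that share mice, runs and the denominator of CPM. The highest were those of Leng8 and Pla2g4e (0.70 each), Hsp90aa1 (0.69), Dnajb1 and Chrne (0.68 each), Vps18 (0.65), Ankrd12 (0.64), Bhlhe41 and Fubp1 (0.63 each) and Mknk2 (0.61). Chrne, the adult acetylcholine receptor subunit of the neuromuscular junction (chr11, 70614883 to 70619194), was higher in 79 of 81 pairs, more than any other gene. It ran from 20.5 to 41.4 CPM in high fibres (median 28.7) and from 16.9 to 23.6 CPM in low fibres (median 18.5), a difference of 0.56 just under the 1.5-fold bound. None of 11 junction genes was past 1.5-fold, and 9, Chrne among them, had a positive difference (median 0.19), beside 42.6% of all genes. Pla2g4e, a cytosolic phospholipase, was at 92.2 to 128 CPM in high fibres and 87.1 to 105 CPM in low fibres. Bhlhe41, a repressor of the circadian clock, was at 34.0 to 60.3 CPM in high fibres and 23.7 to 56.7 CPM in low fibres. Vps18, Ankrd12, Fubp1 and Mknk2 differed by 0.53, 0.56, 0.41 and 0.51.

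Among genes past the fold, those that were higher in most fibre pairs came from several pathways. Abra, which encodes an actin-binding protein of striated muscle, ran from 206 to 414 CPM in high fibres (median 269) and from 93.9 to 232 CPM in low fibres (median 178), with 77 of 81 pairs and a difference of 0.69. Leng8 was at 23.1 to 55.6 CPM in high fibres (median 41.8) and 12.3 to 38.4 CPM in low fibres (median 19.8), with 75 pairs and a difference of 0.95. Both were higher within each kind of fibre, Abra by 0.53 in Y-linked and 1.02 in Xist fibres, and Leng8 by 0.72 and 1.52.

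Others of this group were Vgll4, a cofactor of TEAD factors (0.80, 74 pairs), Ksr1, a scaffold of the Ras pathway (0.65, 73 pairs), Plin4, a lipid droplet coat protein (0.70, 71 pairs), Med26 of the Mediator complex (1.06, 70 pairs) and Tob2 of the antiproliferative Tob family (0.75, 70 pairs). Ksr1 shares 316 exon bases with Gm11201 on the opposite strand, and without WT fibre 15 its difference was 0.51. Per2, a repressor of the circadian clock, was at 8.45 to 20.9 CPM in high fibres and 2.87 to 14.95 CPM in low fibres, with 71 pairs. Its difference of 0.92 was 1.30 within Y-linked and 0.41 within Xist fibres.

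Other higher genes owed more to 1 kind of fibre. Slc25a25, a mitochondrial ATP-Mg/phosphate carrier, was at 58.9 to 388 CPM in high fibres (median 271) and 20.7 to 148 CPM in low fibres (median 70.4), with a difference of 1.59 in 70 pairs. Within Xist fibres it was at 271 to 388 CPM in high fibres and 25.6 to 131 CPM in low fibres, whereas within Y-linked fibres it was at 58.9 to 85.9 CPM and 20.7 to 148 CPM. The differences of Slc25a25 were 2.42 and 0.48. Kcnf1, a potassium channel subunit, had a difference of 0.97 in all 18 fibres, 2.02 within Xist and 0.04 within Y-linked fibres.

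**Figure D3:**
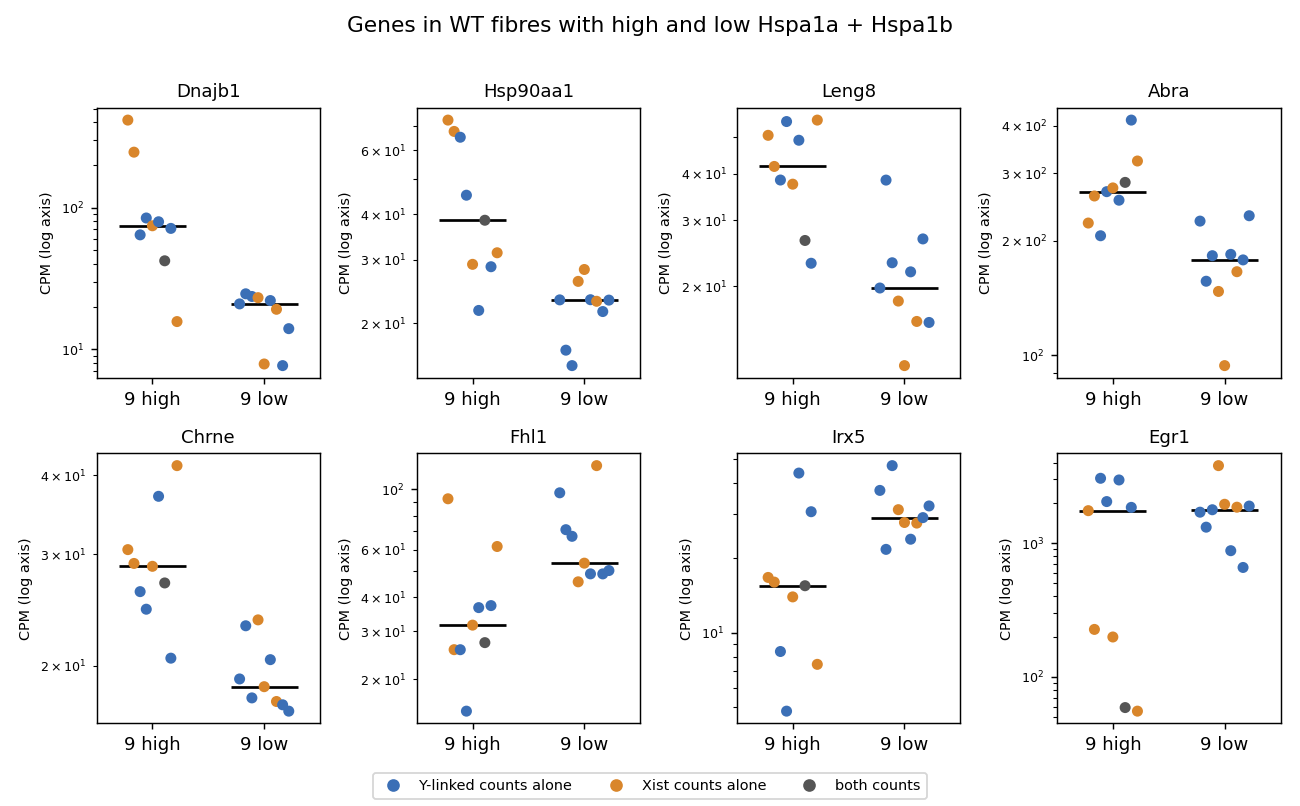
CPM on log axes of 8 genes in each of the 9 high and 9 low WT fibres; each point is a fibre, ordered from left to right by its Hspa1a and Hspa1b level and coloured by sex-linked kind, and bars are medians. For Dnajb1 the medians are 74.3 and 20.9 CPM and for Egr1 1748 and 1776 CPM, with the Xist fibres of the high group spread far below the others for Egr1.

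Genes lower in high fibres overlapped more. The LIM-domain gene Fhl1, whose product sits in the sarcomere, ran from 15.3 to 92.3 CPM in high fibres (median 31.6) and from 45.7 to 122 CPM in low fibres (median 53.5). Its difference was -0.86, with the high fibre above in 12 of 81 pairs, and -1.16 within Y-linked and -0.52 within Xist fibres. Irx5, a homeobox gene, was at 4.83 to 44.0 CPM in high fibres (median 15.5) and 21.7 to 47.1 CPM in low fibres (median 29.1), a difference of -1.02 that was -0.93 within Y-linked and -1.10 within Xist fibres. Other lower genes were Mid1ip1, a regulator of lipogenesis (-1.04), the receptor gene Tnfrsf19 (-0.82), the surface glycoprotein gene Cd24a (-0.82), the pentraxin gene Ptx3 (-0.67) and the transcription factor gene Nr4a2 (-1.30). Without WT fibre 2 the difference of Ptx3 was -0.44. That fibre also carried 378 CPM of fibroblast markers, the most of the low group, and their part in the difference was not tested.

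Txnip, the thioredoxin-interacting protein gene, was at 142 to 417 CPM in high fibres (median 241) and 278 to 1199 CPM in low fibres (median 545). Its difference was -0.98 in all 18 fibres, -1.80 within Xist fibres and -0.19 within Y-linked fibres. Gm15441 shares 606 exon bases with Txnip on the opposite strand and had nearly the same values (-0.97, -1.79 and -0.16), so the pair gives 1 pattern. Ier3 differed by -0.78 in all 18 fibres, -1.03 within Xist and -0.22 within Y-linked fibres, and Gadd45a by -0.65, -1.30 and 0.05. Without WT fibre 2 or 15 the difference of Gadd45a was -0.53 and -0.54.

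Immediate-early genes, which are transcribed within minutes of a stimulus, differed between high and low fibres in opposite directions in the different kinds of fibre. Over all 18 fibres 15 of 33 entering members were past 1.5-fold and lower and 1 higher (0.842% and 0.96% of all genes), with a median of -0.48. Within Y-linked fibres 13 were past the fold and higher and 1 lower (2.35% and 0.526% of all genes), 30 of 33 had a positive difference (41.4% of all genes), and the median was 0.39. Within Xist fibres 0 were past the fold and higher and 24 lower (2.63% and 3.97% of all genes), 4 of 33 had a positive difference (50.8% of all genes), and the median was -1.30. The difference between the kinds, which is also one between mice, was not tested.

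The per-fibre sums of this list show the split. Among Y-linked fibres the 4 high ones had 9441 to 13079 CPM and the 6 low ones 5559 to 9305 CPM, with no overlap. Among Xist fibres the 4 high ones had 2438 to 7147 CPM and the 3 low ones 8644 to 12639 CPM, also with no overlap. Kind and run were not balanced, since all 3 low Xist fibres came from run2868 and the 4 high ones from run2868 (1), run2869 (1) and run0092 (2). Run and Hsp70 level therefore cannot be told apart within Xist fibres beyond the 1 high fibre of run2868, WT fibre 10, which was at 3460 CPM. The Y-linked fibres WT 1 and WT 14 of the high group were at 11169 and 9759 CPM, against 7690 CPM in WT fibre 8 of the low group, all of run2868. In run2869 the Y-linked high fibre WT 20 was at 13079 CPM, against 6858 to 9305 CPM in the 4 Y-linked low fibres, and in run0092 WT fibre 26 of the high group was at 9441 CPM, against 5559 CPM in WT fibre 25 of the low group. Over both kinds the median of the list was -0.46 within run2868 and 0.11 within run2869. Egr1, the most abundant member and a zinc-finger factor, was at 1850 to 3051 CPM in Y-linked high fibres and 658 to 1892 CPM in Y-linked low fibres. In Xist fibres Egr1 was at 55.6 to 1748 CPM in high fibres and 1855 to 3793 CPM in low fibres. Junb, the next most abundant, was at 988 to 1719 and 755 to 1288 CPM in Y-linked high and low fibres, and at 214 to 610 and 882 to 1541 CPM in Xist high and low fibres. WT fibre 9, with counts of both, had 59.1 CPM of Egr1 and 298 CPM of Junb.

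**Figure D4:**
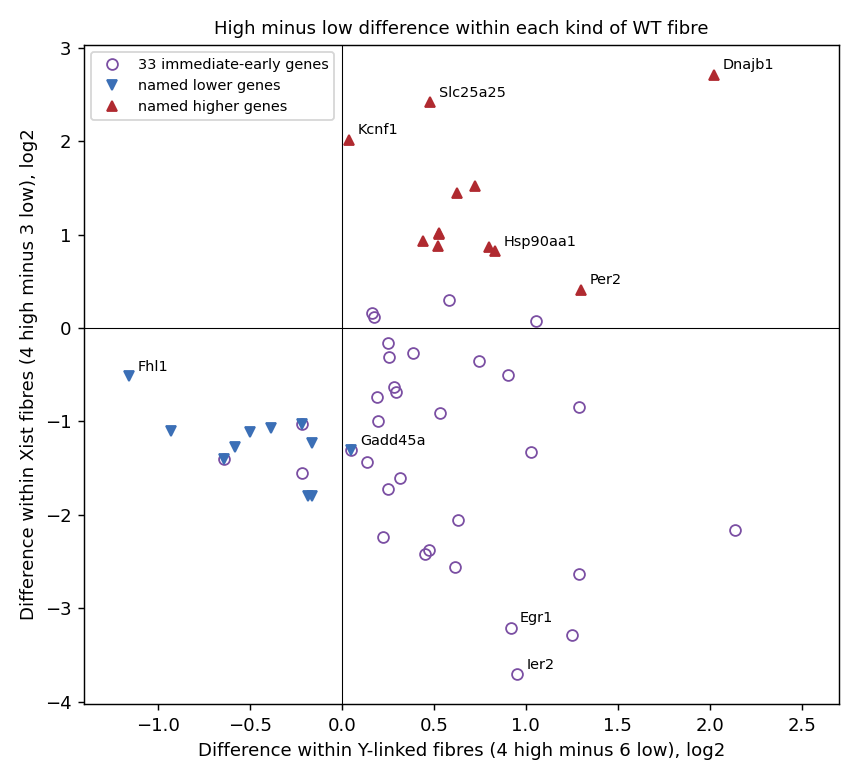
High minus low difference in mean log2(CPM + 1) within Y-linked WT fibres (x axis) and within Xist WT fibres (y axis) for the named higher genes, the named lower genes reported here and 33 immediate-early genes. Dnajb1 (2.02 and 2.71) and Hsp90aa1 (0.83 and 0.82) lie in the upper right, whereas most immediate-early genes lie in the lower right, such as Egr1 at 0.92 and -3.21.

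Metallothionein genes, whose products bind zinc, were also split by kind of fibre. Mt1 was at 534 to 949 CPM in Y-linked high fibres and 499.6 to 954 CPM in Y-linked low fibres, and at 128 to 219.7 CPM in Xist high fibres and 449 to 908 CPM in Xist low fibres. Mt2 had a difference of -0.93 over all 18 fibres, 0.48 within Y-linked and -2.50 within Xist fibres. Of the 5 entering members of the list 2 (Mt1 and Mt2) were past the fold and lower over all 18 fibres, beside 0.842% of all genes.

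Circadian clock genes, which drive the daily cycle of transcription, were mostly higher in high fibres. Of 17 entering members 4 were past 1.5-fold and higher and 0 lower (0.96% and 0.842% of all genes), 14 had a positive difference (42.6% of all genes), and the median was 0.28. Besides Per2 these were Per1 (0.62), Nr1d1 (0.59) and Ciart (1.89), named after their values were seen. Ciart, a repressor of the clock, was at 50.4 to 76.04 CPM in Xist high fibres and 0.963 to 38.8 CPM in Xist low fibres, and at 3.88 to 7.10 CPM and 0.765 to 17.4 CPM in Y-linked high and low fibres. The 2 most abundant members, Bhlhe40 and Tef, differed by 0.30 and 0.21. The list's median was 0.16 within Y-linked fibres and 0.19 within Xist fibres. The sources used here give no hour at which a muscle was taken.

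At the top of the Hsp70 range another chaperone gene, Hsph1, stood apart. The 4 fibres with the highest sums of all 47, C2KO fibre 17 (1001 CPM), WT fibre 12 (855), C2KO fibre 12 (824) and WT fibre 17 (650), stand apart from the next at 337 CPM, and were singled out after the values were seen. They share neither genotype nor sex-linked kind, since the WT pair were Xist and the C2KO pair Y-linked fibres. In this order Dnajb1 was at 361, 415, 249 and 246 CPM, against at most 84.4 CPM in the other 43 fibres. Hsp90aa1 was at 100, 72.8, 88.6 and 67.7 CPM, against at most 65.3 CPM. Hsph1, which hardly differed between the groups of 9, was at 186, 129, 141 and 118 CPM, against 49.6 to 98.9 CPM in the other 43 fibres.

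For 3 of the 29 entering targets (Hsp90aa1, Hsph1 and Dnajb1, the last named with the chosen pair) all 4 fibres lay above all 43 others. This held for 10 of 7604 genes (0.132%) in all. The other 7 were Cers2, Ciart, Cry1, Insig1, Irf2bp2, Neu1 and Smarcd2. Neu1, the lysosomal sialidase gene, lies in the same stretch of chromosome 17 as Hspa1a and was a member of the list of neighbours, whose 5 entering genes had a median difference of 0.01 between the groups of 9. No gene lay below all others in these 4 fibres. Hspa8, at 554 to 634 CPM in the 4 fibres, stayed inside the 446 to 865 CPM of the rest. C2KO fibre 17 also carried 5379 CPM of fibroblast markers, against 98.8, 0.206 and 5.78 CPM in WT fibre 12, C2KO fibre 12 and WT fibre 17, and it had the highest Serpinh1 (36.5 CPM).

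**Figure D5:**
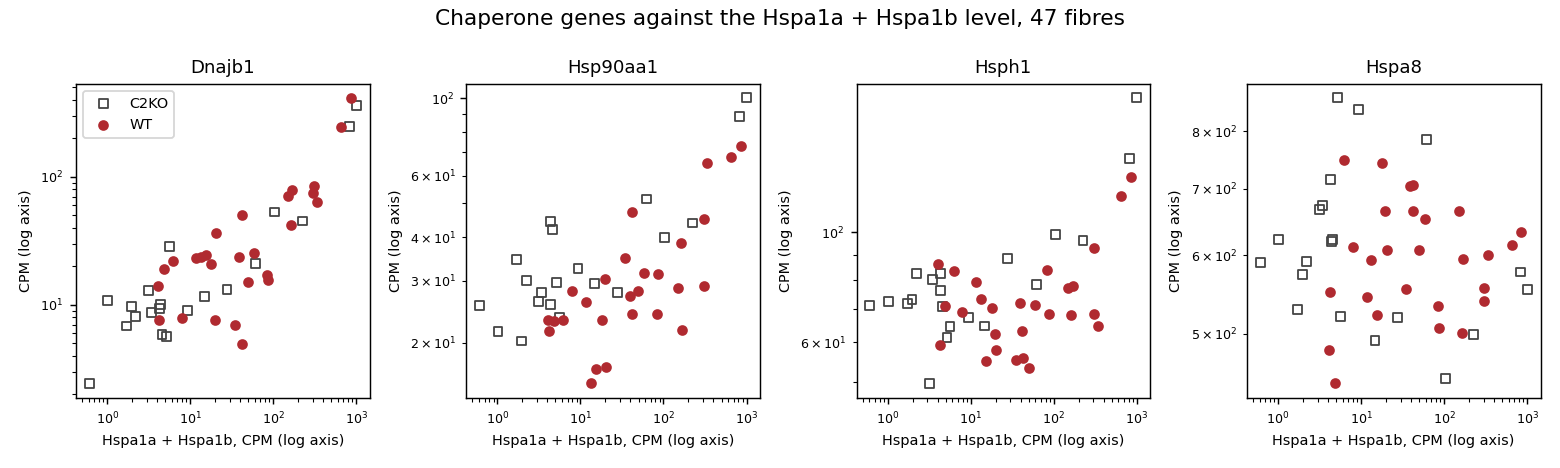
CPM of 4 chaperone genes against the summed CPM of Hspa1a and Hspa1b in 47 fibres, both on log axes; open squares are C2KO and filled circles WT fibres. Dnajb1 and Hsp90aa1 climb over the upper part of the range, Hsph1 stands out only in the 4 fibres of at least 650 CPM, and Hspa8 stays between 446 and 865 CPM.

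The promoter of Hsph1 is shown because its match differs from that of the chosen pair in order and place. Its 250 bases before the start (RefSeq, GRCm38.p6, minus strand, chr5:149636337-149636586) held 1 paired unit TTCNNGAA, in capitals, which began 33 bases before the start.
Hsph1: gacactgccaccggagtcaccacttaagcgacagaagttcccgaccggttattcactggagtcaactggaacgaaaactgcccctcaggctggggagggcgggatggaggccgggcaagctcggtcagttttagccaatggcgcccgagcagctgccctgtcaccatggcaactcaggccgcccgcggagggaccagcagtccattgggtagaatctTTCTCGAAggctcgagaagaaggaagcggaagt
Neither of the 2 starts listed for Dnajb1 had a match to these letters in its 250 bases. Of the 12 named higher genes 9 had a promoter in the table, and 0 of the 9 held a paired unit. Hsp90aa1, Abra and Per2 had no promoter there and were not searched. The share of genes past the fold that held one was 5.56% of 54 higher and 10.5% of 38 lower genes, beside 10.0% of all entering genes.

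The C2KO fibres gave a second range of Hsp70 levels that the rule did not use. The 7 highest had 14.7 to 1001 CPM with a median of 104 CPM, and the 7 lowest 0.609 to 3.42 CPM with a median of 1.96 CPM. Of the 7604 genes 276 were at least 1.5-fold higher (3.63%) and 109 lower (1.43%) in the 7 highest. The groups also differed in kind, with 6 Y-linked fibres and 1 Xist fibre among the highest and 2 Y-linked and 5 Xist fibres among the lowest. All 10 Y-linked C2KO fibres carry the number 740 in their titles and the other 10 carry 2445, so kind and title number cannot be told apart. Fibroblast markers summed to a median of 65.4 CPM in the highest (up to 5379) and 0.705 CPM in the lowest (up to 370). The part of either in the differences was not tested.

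Dnajb1 and Hsp90aa1 were higher in the highest C2KO fibres too. Dnajb1 was at 11.6 to 361 CPM in the 7 highest C2KO fibres and 2.44 to 12.9 CPM in the 7 lowest, a difference of 2.53 in 48 of 49 pairs. Hsp90aa1 was at 27.9 to 100 CPM in the highest and 20.2 to 34.6 CPM in the lowest (0.88, 45 of 49 pairs). Within the 740 fibres alone, 5 against 5, the differences of Dnajb1 and Hsp90aa1 were 3.19 and 0.76. These 5 highest had 61.9 to 1001 CPM of the Hsp70 sum and the 5 lowest 1.71 to 27.8 CPM. C2KO fibre 18, at 27.8 CPM, was among the 7 highest C2KO fibres but among the 5 lowest of the 740 fibres. Leng8 and Vps18 were also higher in the 7 highest, by 0.68 and 0.62. Hsph1 differed by 0.52 and Hspa8 by -0.15, and the 29 targets had a median of 0.12 beside 0.09 for all genes. Past the fold and higher were 3 (Hsp90aa1, Serpinh1 and Dnajb1, the last named with the chosen pair), beside 3.63% of all genes. Serpinh1 was highest in C2KO fibre 17 (36.5 CPM), which carried 5379 CPM of fibroblast markers, and their part was not tested.

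Other genes of the WT comparison were mixed in C2KO fibres, where some differed less or in the other direction and others kept their direction. Abra differed by -0.25 in C2KO fibres and by 0.47 within the 740 fibres, Plin4 by -0.18 and 0.10, and Pla2g4e by -0.40 and 0.20. Chrne differed by 0.19, with the high fibre above in 30 of 49 pairs. The 11 junction genes had a median of -0.02 in C2KO fibres, beside 0.09 for all genes. Within the 740 fibres it was -0.10, beside 0.07. Of the 73 genes higher in WT high fibres 54 had a positive difference in C2KO (74.0%), beside 69.2% of all genes. Past the fold and higher were 27, beside 3.63% of all genes. Of the 64 lower genes 49 had a negative difference (76.6%), beside 30.8% of all genes. Past the fold and lower were 37, beside 1.43% of all genes. Within the 740 fibres the shares were 82.2% of the higher genes, beside 63.7% of all genes, and 73.4% of the lower genes, beside 36.3%. Fhl1 differed by -0.79 and Txnip by -0.71 between the highest and lowest C2KO fibres. Immediate-early genes had a median of -0.67 over the 7 and 7 C2KO fibres and of -0.03 within the 740 fibres.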

How the data were processed

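Single EDL fibres of WT and C2KO mice were lysed and their RNA sequenced. The deposited tables hold raw read-pair counts for 24421 genes per fibre, which the authors made with featureCounts 1.5.2 over exons of mm10, with reverse-strand counting and uniquely mapped reads. HISAT2 2.0.5, CASAVA 1.4 and FastQC 0.11.2 are named in the submitters' processing notes. The sources used here do not say if the kit marked strand, which leaves genes that overlap on opposite strands uncertain. Counts of genes were scaled to CPM, and genes with a mean of at least 5 CPM over the 27 WT fibres entered (7604). Differences were taken on log2(CPM + 1) with Python 3.11.15 and pandas 2.3.3. Precision is limited by 7769593 to 14606631 gene counts per WT fibre and by the number of fibres. The lowest chi-square per degree of freedom over 351 pairs of WT fibres was 8.44, so no pair was as alike as the same library sequenced again. Whether separate libraries came from the same fibre was not tested.

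The genes named in the text were up to 12 higher and 12 lower genes that averaged 10 CPM or more in the 18 fibres. These differed by over 1.5-fold and were taken by the most fibre pairs and then by size. Also named were all heat-shock-induced targets and up to 3 non-overlapping or otherwise the 2 most abundant members of other lists. Last came the 10 genes with the highest Spearman correlation with the Hsp70 sum, among those averaging 10 CPM or more in the 18 fibres. Any other gene was picked with its values in view. Some genes that meet the rule are not reported here. The fibres, gene lists and alternatives were chosen with earlier results of these data known, and no p-value was computed because no label ties a fibre to a mouse. The calculation was tested on simulated data. Alternatives were TMM (edgeR 4.0.16) and DESeq2 1.42.0 size factors, other filters, pseudocounts, group sizes and rankings, single kinds of fibre and leaving out each fibre. The comparison without the 2 highest fibres, the mean over both kinds, the C2KO comparisons and the 4 highest fibres were added after seeing the data.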

Additional observations from a re-analysis of the deposited data

Results flagged for a closer look

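In 4 of 118 groups of 9 fibres examined for named genes, 1 fibre lay far from the other 8, where chance flags about 1 in 20 groups. Kcnf1 was at 2.51 CPM in WT fibre 26 of the high group, against 15.4 to 32.7 CPM in the other high fibres. Abra was at 93.9 CPM in WT fibre 2 of the low group, against 147 to 232 CPM in the other low fibres. Ptx3 was at 100.1 CPM in the same fibre, against 16.2 to 37.7 CPM in the others. Ksr1 was at 28.4 CPM in WT fibre 25 of the low group, against 10.2 to 15.2 CPM.

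High and low fibres differed in opposite directions in Y-linked and in Xist fibres for a further set of genes. Of 7604 genes, 16 were higher in the high fibre of all 24 Y-linked pairs and lower in that of all 12 Xist pairs, and 7 were the reverse. The 16 were Adamts1, Arid1b, Cdk5rap2, Csrnp1, Elk4, Flnc, Hnrnpul1, Klf11, Mib1, Pkd1, Polr2a, Rara, Taf7, Tnfrsf12a, Vasn and Zmiz2, named after their values were seen. The difference between the kinds, which is also one between mice, was not tested, and the 3 low Xist fibres were all of 1 run.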

How the results depend on the processing

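The counts of genes past 1.5-fold moved most with the kind of fibre. Within Y-linked fibres 179 were higher and 40 lower, with 35 and 4 that did not overlap, and within Xist fibres 200 were higher and 302 lower, with 129 and 166 that did not overlap. With smaller groups fewer genes overlap by construction. The higher genes numbered 124 with no filter beyond 1 count (1 without overlap), 37 among genes averaging 20 CPM or more and 44 with a pseudocount of 5. The lower genes numbered 27 with 13 fibres against 13, and 2 genes did not overlap with 7 against 7. Within Y-linked fibres the differences of Gadd45a (0.049), Egr1 (0.92), Junb (0.25), Mt1 (0.27), Mt2 (0.48) and Btg2 (0.48) changed sign, and within Xist fibres those of Mrc1 (-0.057) and Eif2s3y (0.0018). The cause was not tested. Leaving out each fibre in turn gave 61 to 83 higher and 50 to 89 lower genes, 0 to 1 and 0 to 0 of them without overlap, and a median of 0.02 to 0.06 for the heat-shock-induced targets. Of 4043 differences of named genes over all alternatives, 3994 moved by less than the spread between fibres, and 229 changed sign, 8 of them among differences past 1.5-fold (those given above). No paired analysis was possible because no label ties a fibre to a mouse, and no test was run.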
